A study of Mus musculus with 4 samples.

Results

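The genes described here are 8 members of the cholesterol synthesis pathway, Hmgcs1, Idi1, Fdps, Fdft1, Sqle, Cyp51, Msmo1 and Insig1, out of 32285 genes measured. They were taken by their symbols, with no threshold on a measured value, but were chosen with earlier results of these data known. Although the set was put forward as genes of cholesterol synthesis and uptake, none of the 8 is an uptake receptor, so uptake was read from a separate list of receptors and lysosomal genes.

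CD45-positive cells, which are leukocytes including microglia, were sorted live from C57B6/J mice with cortical brain injury, from dissected thalamus or hippocampus (HPC), and their transcripts were counted cell by cell with droplet barcodes (scRNA-seq). All mice carried the injury and no uninjured tissue was compared, so the groups are 2 regions of injured brains, and the labels give neither the age nor the time after injury. Each region gave 4 tagged sets of cells (n = 4 and 4). Per the methods of the study, equal numbers of cells from 4 mice were pooled for each region, so a set was taken as 1 mouse, which the labels do not state, and p-values measure the spread between these sets only. Since thalamus cells and HPC cells went into separate 10x libraries, region and library cannot be told apart.

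Cholesterol is built from acetyl-CoA through the mevalonate pathway, then squalene, and then a chain of sterol ring reactions. When membrane sterol is low, the protein SREBP2 leaves the endoplasmic reticulum and activates these genes, and when sterol is high, INSIG proteins hold it back. In the adult brain most cholesterol is made locally. Microglia that engulf myelin and dead cells take up large amounts of it, which they store as esters, oxidise to oxysterols, or export to apolipoprotein E through ABC transporters under the control of the LXR receptors.

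The 8 genes lie on 6 chromosomes in GRCm38, and all are protein coding. The mevalonate enzymes come first. Hmgcs1, the synthase that makes HMG-CoA, is at chr13:119690379-119708260 on the forward strand. Idi1, which isomerises the first isoprenoid unit, is at chr13:8885501-8892451 on the forward strand. Fdps, which makes farnesyl diphosphate, is at chr3:89093588-89101959 on the reverse strand. Squalene follows. Fdft1, the squalene synthase, is at chr14:63145150-63179578 on the reverse strand, and Sqle, the squalene epoxidase and a slow step of the pathway, is at chr15:59315077-59331192 on the forward strand. Cyp51, the lanosterol demethylase, is at chr5:4081145-4104746 on the reverse strand, and Msmo1, a sterol methyl oxidase, is at chr8:64718139-64733792 on the reverse strand. Insig1, the sterol-sensing brake whose own transcription is driven by SREBP, is at chr5:28071363-28078662 on the forward strand. The UMI counts of the files are given per gene, so exons, introns and untranslated parts were not told apart.

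RefSeq promoter windows (GRCm38.p6) were at hand for 5 of the 8 genes, namely Hmgcs1, Idi1, Cyp51, Msmo1 and Insig1. In the 250 bases before the RefSeq start, both strands were searched for the classical sterol regulatory element, TCACNCCAC, and for the CCAAT box, CCAAT, which binds the NF-Y factor that often works beside SREBP. The RefSeq start is not the end of the gene span given above, which is from GENCODE. The window of Hmgcs1 lies outside that span, while 105 bases of the Idi1 window, 49 of Cyp51, 214 of Msmo1 and 49 of Insig1 lie inside it. The element was found in 1 of the 5 windows, that of Hmgcs1, against 1.05% of 32817 promoter windows of the same length. The CCAAT box was found in all 5, against 33.8% of the windows. The window of Hmgcs1 is shown because it holds both motifs. It reads 5′ to 3′ on the strand of the gene, with matches to either motif in capitals, and the matches do not overlap.
Hmgcs1, chr13:119690101-119690350, forward: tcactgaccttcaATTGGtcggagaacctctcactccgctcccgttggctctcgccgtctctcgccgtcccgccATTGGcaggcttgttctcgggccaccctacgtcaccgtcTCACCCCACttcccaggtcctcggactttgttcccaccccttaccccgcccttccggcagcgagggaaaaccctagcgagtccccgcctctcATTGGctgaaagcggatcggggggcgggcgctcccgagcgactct
ATTGG is CCAAT read from the other strand, and the single longer match is the sterol regulatory element, which begins 137 bases before the start. A match is a description of the letters and was not tested as a binding site.

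After filtering, 24939 cells with 119958441 UMIs (molecules counted once) were kept of 29190 deposited. The median cell held 4262 to 4596 UMIs in sets of the thalamus and 4534 to 4657 in sets of the HPC. No cell barcode occurred in more than 1 set of a region, and 65 barcodes occurred in both regions. Cells were gated by marker genes into classes, and 18888 were microglia-like. The gate required at least 6 of 12 microglial markers in a cell. Detection of all 12 in at least 10% of the microglia-like cells is thus no separate evidence. Among these, 11430 were homeostatic-like and 3465 were DAM-like, after the disease-associated microglia (DAM) state, by scores of other genes than the 8. The DAM-like range held 34.9% ± 11.3 (SD, n = 4) of microglia-like cells in the thalamus and 4.53% ± 2.96 in the HPC (n = 4). It is cut from a continuous score, with 1560 cells within 0.1 of the cut. HPC set 1 stood apart from the other HPC sets, with 58.9% of its microglia-like cells homeostatic-like against 80.8% to 90.2% in the others, and 80.5% of its cells kept against 92.9% to 95.6%. Thalamus set 1 stood apart from the other thalamus sets, with 50.9% of its microglia-like cells DAM-like against 25.7% to 34.7%, and 21.9% homeostatic-like against 41.1% to 54.1%. Calls were also made without each set.

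The 8 genes were rare transcripts in microglia. In the 18888 microglia-like cells they gave 7169 UMIs in all, and their summed level was 0.77 ± 0.05 UMIs per 10,000 gene UMIs (SD, n = 8 sets). Each UMI marks 1 molecule by its 3′ end, so levels were not divided by gene length, and capture can differ between genes. Msmo1 gave 1676 of these UMIs, Hmgcs1 1291, Cyp51 1283 and Fdps 1225. The squalene epoxidase Sqle gave 1.26%, or 90 UMIs over all sets, and at 0.003 to 0.015 UMIs per 10,000 it was too low to be tested in microglia.

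To ask whether thalamic and HPC microglia differed, the microglia-like cells of a set were added up to 1 count per gene and all genes were fitted. The summed level of the 8 genes was 0.76, 0.81, 0.81 and 0.84 UMIs per 10,000 in thalamus sets 1, 3, 2 and 4, and 0.72, 0.73, 0.74 and 0.76 in HPC sets 1, 4, 3 and 2. The thalamus sets all lay above the HPC sets, by little between HPC set 2 and thalamus set 1. Insig1 was the member that rose. Its level was 0.082, 0.082, 0.103 and 0.097 UMIs per 10,000 in thalamus sets 1 to 4 and 0.075, 0.066, 0.058 and 0.071 in HPC sets 1 to 4, and the 2 groups did not overlap. Its log2 fold change was 0.49 ± 0.13 (SE), with an adjusted p of 0.0338 by edgeR's quasi-likelihood test (Benjamini-Hochberg, across all genes tested). Thus 1 of 7 tested members was called, where 13.1% of all 12984 genes tested were called and 8.94% were called and higher. Non-overlapping sets, seen for 1 of the 7, were seen for 20.2% of all genes.

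The call for Insig1 was a narrow one. Leaving out 1 set at a time ended it for 6 of the 8 sets, namely HPC sets 2, 3 and 4 and thalamus sets 1, 3 and 4, with adjusted p from 0.0585 to 0.1002. It held without HPC set 1 (0.57, adjusted p = 0.0129) or thalamus set 2 (0.54, adjusted p = 0.0424), and it was lost when 1749 cells were drawn from every set (0.39, adjusted p = 0.125). With library totals in place of TMM factors Insig1 stayed called (0.43, adjusted p = 0.0483), while 47.2% of all called genes were higher in the thalamus against 68.3%. The mixture of states also differed, since the regions differ in their share of DAM-like cells. In homeostatic-like cells alone, the fold change of Insig1 was 0.42 ± 0.18 (adjusted p = 0.349). In DAM-like cells alone it was 0.15 ± 0.29 (adjusted p = 0.91, edgeR).

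**Figure D1:**
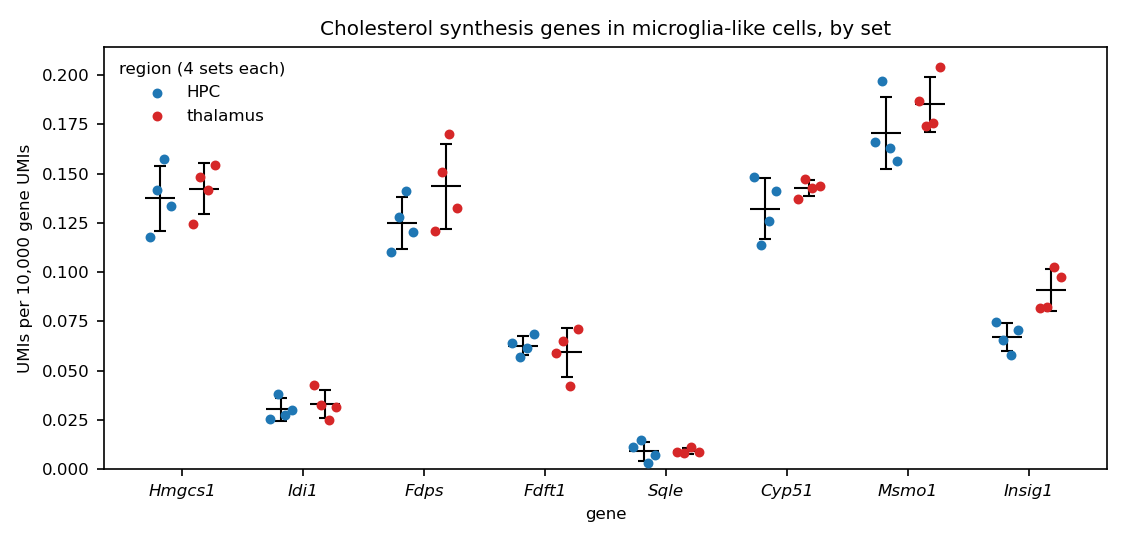
Levels of the 8 genes in microglia-like cells, in UMIs per 10,000 gene UMIs, for each of the 4 HPC and 4 thalamus sets, with the mean and SD of each region in black. Insig1 is the gene whose thalamus sets (0.082 to 0.103) all lie above its HPC sets (0.058 to 0.075), and Sqle lies near 0 in every set.

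Fdps was next. Its level was 0.121, 0.151, 0.170 and 0.132 UMIs per 10,000 in thalamus sets 1 to 4 and 0.110, 0.128, 0.141 and 0.120 in HPC sets 1 to 4, so the regions overlapped. The fold change was 0.27 ± 0.11 (adjusted p = 0.126). With the set number as a block (same-numbered sets deviated together in these cells), the calls over all genes rose from 1699 to 3682, and Fdps was called as well (log2 fold change 0.26, adjusted p = 0.0376), beside Insig1 (0.48, adjusted p = 0.0220). The other 5 tested members had fold changes of at most 0.20. For Hmgcs1 the 95% interval of the log2 difference was -0.09 to 0.33, for Cyp51 -0.07 to 0.41, for Msmo1 -0.02 to 0.39, for Idi1 -0.26 to 0.66 and for Fdft1 -0.38 to 0.37.

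The regions were then compared within each microglial state. In homeostatic-like cells 0 of 7 tested members were called by edgeR, against 0.796% of 12055 genes. At an unadjusted p under 0.05 there were 2, Insig1 (higher in the thalamus) and Fdft1 (fold change -0.43 ± 0.19), and DESeq2 called 0. The summed level was 0.75 ± 0.05 UMIs per 10,000 in the thalamus and 0.72 ± 0.01 in the HPC (n = 4 and 4). In these cells a list of dissociation genes (such as Fos and Jun, which rise when tissue is taken apart) summed to 85.0 ± 10.2 UMIs per 10,000 in the thalamus and 63.5 ± 6.37 in the HPC, and its part in these values was not tested.

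DAM-like cells were not alike in the 2 regions. Their DAM marker list of 11 genes summed to 157 ± 57.5 UMIs per 10,000 (SD, n = 4) for the thalamus and 83.0 ± 6.68 for the HPC (n = 4), without overlap and with thalamus set 1 the highest at 242.6, and the part of this in the region values of DAM-like cells was not tested. In these cells 0 of 6 tested members were called, against 1.21% of 10365 genes, and DESeq2 called 0 too. Hmgcs1 had the 1 unadjusted p under 0.05. Its level was 0.131, 0.200, 0.144 and 0.169 UMIs per 10,000 in thalamus sets 1 to 4, and 0.104, 0.035, 0.196 and 0.105 in HPC sets 1 to 4. The HPC values scattered widely and the regions overlapped, with a fold change of 0.71 ± 0.30 (adjusted p = 0.320). Few UMIs stood behind these values. The HPC had 525 DAM-like cells with 286 UMIs of the 8 genes in all, against 2940 cells with 1444 UMIs in the thalamus, and HPC set 3 had 36 cells. Fdft1 had 0 UMIs in the DAM-like cells of HPC set 2, which allows a level of up to 0.0521 UMIs per 10,000, near the 0.0547 of thalamus set 1. Summed over the 8 genes the level was 0.89 ± 0.09 in the thalamus and 0.90 ± 0.14 in the HPC.

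Microglial states were compared next. Sums of DAM-like and homeostatic-like cells were paired by set in the fit, and Fdps, Cyp51, Msmo1 and Insig1 were higher in DAM-like cells. That is 4 of 7 tested members, all higher, where 48% of 11825 genes were called and 25.8% were called and higher. The median log2 fold change was 0.47 over the 7 members and -0.01 over all genes. With so many genes called, the count is read against these shares, and nothing particular to the members is drawn from it.

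Insig1, the brake on SREBP, was higher in DAM-like cells of 8 of 8 sets. Its level was 0.088, 0.102, 0.140 and 0.104 UMIs per 10,000 in DAM-like cells of thalamus sets 1 to 4, against 0.087, 0.056, 0.099 and 0.094 in their homeostatic-like cells. In HPC sets 1 to 4 it was 0.082, 0.087, 0.098 and 0.141, against 0.068, 0.064, 0.054 and 0.065. The difference was small in thalamus set 1 and widest in HPC set 4. The log2 fold change was 0.61 ± 0.16 (adjusted p = 0.00301, edgeR).

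Cyp51, at the start of the sterol ring steps, was higher in 7 of 8 sets by TMM-scaled counts. Its level was 0.138, 0.183, 0.163 and 0.154 UMIs per 10,000 in DAM-like cells of thalamus sets 1 to 4, against 0.141, 0.124, 0.135 and 0.124 in homeostatic-like cells. In the HPC sets it was 0.219, 0.087, 0.294 and 0.158, against 0.152, 0.110, 0.121 and 0.139. HPC set 2 went the other way, thalamus set 1 was nearly level, and HPC set 3, with its 36 cells, had the highest value. The fold change was 0.52 ± 0.13 (adjusted p = 0.00142).

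Msmo1, which acts after Cyp51 in the ring steps, was higher in 6 of 8 sets by TMM-scaled counts. Its level was 0.197, 0.225, 0.201 and 0.214 UMIs per 10,000 in DAM-like cells of thalamus sets 1 to 4, against 0.195, 0.145, 0.166 and 0.200. In the HPC it was 0.279, 0.226, 0.147 and 0.123, against 0.151, 0.186, 0.161 and 0.165, so HPC sets 3 and 4 were lower. The fold change was 0.51 ± 0.12 (adjusted p = 0.00132).

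Fdps, which makes the precursor of squalene, was higher in 8 of 8 sets, by a fold change of 0.46 ± 0.12 (adjusted p = 0.00342). Its level was 0.126 to 0.208 UMIs per 10,000 in DAM-like cells and 0.0997 to 0.148 in homeostatic-like cells. This call depended on the settings. Fdps was not called with library totals only (0.26, adjusted p = 0.0802) or under a stricter gate (0.33, adjusted p = 0.0833). It was also not called with the same number of cells from every set.

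The other 3 tested members did not pass the test. Hmgcs1, at the head of the pathway, had a fold change of 0.22 ± 0.15 and was higher in 5 of 8 sets, with a 95% interval of -0.08 to 0.53. Idi1 had 0.47 ± 0.29 with an interval of -0.14 to 1.07, and Fdft1 0.38 ± 0.23 with -0.09 to 0.85. Sqle was not tested, and its level was 0 to 0.0521 UMIs per 10,000 in DAM-like cells and 0 to 0.0157 in homeostatic-like cells. In thalamus set 4 no UMI of Sqle was found in homeostatic-like cells, which allows up to 0.0069 UMIs per 10,000.

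**Figure D2:**
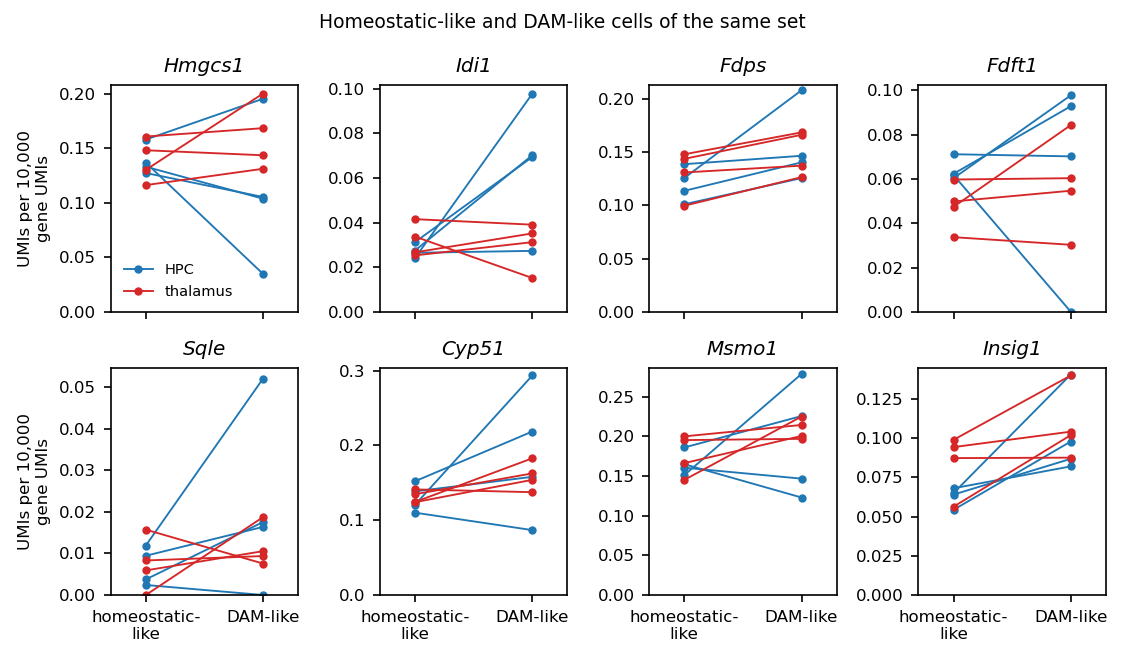
Level of each gene in homeostatic-like and DAM-like cells, in UMIs per 10,000 gene UMIs, with a line for each of the 8 sets (4 HPC, 4 thalamus) and a separate vertical scale for each gene. Insig1 and Fdps are higher in the DAM-like cells of every set, while Hmgcs1, Idi1 and Fdft1 cross in both directions.

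Scaling mattered for this comparison. Apoe alone took 307 to 597 UMIs per 10,000 in DAM-like cells and 22.7 to 218 in homeostatic-like cells, which lowers every other gene's share, and the TMM factors used here scale for such shifts. With library totals only, the median of all genes moved to -0.21 and 27.5% of the called genes were higher, against 53.6% with TMM. Cyp51, Msmo1 and Insig1 stayed called under that setting. DAM-like cells were also deeper, with median UMIs per cell of 5334 to 6016 against 4302 to 4963, and a larger share of them was poor in the nuclear RNA Malat1, 2.78% to 22.1% against 0% to 0.811%. Without Malat1-poor cells, and without HPC set 1, the same 4 members were called (without HPC set 1, adjusted p from 0.00661 to 0.0180). The dissociation list summed to 35.8 to 53.3 UMIs per 10,000 in DAM-like and 56.9 to 98.8 in homeostatic-like cells, without overlap, and the part of depth and of this list in the state values was not tested. In a draw of the same number of cells from every set (36 DAM-like cells each), 0 of 5 tested members were called (adjusted p from 0.0831 to 0.468), with fold changes of the 4 between 0.50 and 0.74.

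The state difference was then asked for in each region. In the thalamus 5 of 7 members were called, all higher, namely Hmgcs1 (0.42 ± 0.16, adjusted p = 0.0363), Fdps (0.41 ± 0.15), Cyp51 (0.50 ± 0.16), Msmo1 (0.46 ± 0.15) and Insig1 (0.57 ± 0.20). There 41.7% of all genes were called and 23.3% were called and higher. In the HPC 1 of 7 was called, Msmo1 (0.61 ± 0.22, adjusted p = 0.0333), where 28.7% of all genes were called and 16% were called and higher. By TMM-scaled counts Msmo1 was higher in only 2 of 4 HPC sets. Idi1, Fdps and Insig1 were higher in 4 of 4 HPC sets and were not called. Insig1 in the HPC had a larger fold change than in the thalamus, 0.71 ± 0.31, with an adjusted p of 0.0944. The difference between the regions was tested as an interaction, and 0 of 7 members passed, against 0.49% of all genes. Hmgcs1 had the 1 unadjusted p under 0.05 there, with a log2 fold change 0.74 ± 0.32 greater in the thalamus (adjusted p = 0.497). Thus the members called in the thalamus and not in the HPC were not shown to differ between the regions.

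Along the DAM score itself, cut into 5 ranges, the summed level of the 8 genes was 0.74, 0.72, 0.79, 0.89 and 0.93 UMIs per 10,000 from the lowest to the highest range (means of sets with at least 20 cells). Over the sets, the median of Insig1 was 0.0762 and 0.0699 in the 2 lowest ranges and 0.102 in the highest, where sets ran from 0.0533 to 0.296 and the top value, of HPC set 4, came from 5 UMIs in 24 cells. The median of Msmo1 was 0.172 and 0.170 in the 2 lowest ranges and 0.238 in the highest. The median of Hmgcs1 was 0.153 in the lowest range and 0.126 in the highest, but the regions differed. Over HPC sets its mean fell from 0.138 ± 0.031 (SD) to 0.064 ± 0.014, the latter from only 8 UMIs in 164 cells of 3 sets. Over thalamus sets it did not fall, with 0.154 ± 0.051 in the lowest range and 0.170 ± 0.057 in the highest (168 UMIs, 1796 cells). These are descriptions of the same cells and carry no test.

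**Figure D3:**
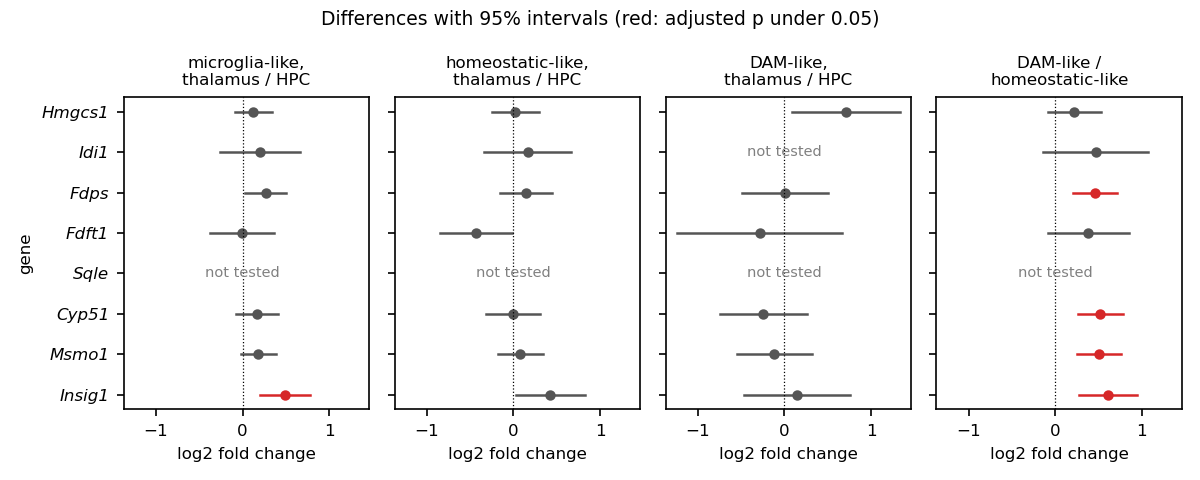
Log2 fold change of each gene (point) with its 95% interval (line) from edgeR, for the thalamus over the HPC in microglia-like, homeostatic-like and DAM-like cells and for DAM-like over homeostatic-like cells of the same sets, with called genes in red. Insig1 (0.49) is the called gene of the region panels, and Fdps (0.46), Cyp51 (0.52), Msmo1 (0.51) and Insig1 (0.61) are the called genes of the state panel.

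The other genes of sterol and fatty acid handling were read from 7 lists with 54 genes. In DAM-like against homeostatic-like cells 44 were tested, 23 were higher and 7 lower, with a median log2 fold change of 0.26, where 48% of all genes were called and 25.8% were called and higher. Of the further mevalonate enzymes 2 of 6 were higher and 1 lower, and of the further sterol ring enzymes 4 of 9 were higher and 1 lower. Of the regulators 2 of 6 were higher and 1 lower.

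Cholesterol from outside the cell enters through receptors and lysosomes. Of 10 tested genes of uptake and lysosomal release, 7 were higher and 2 lower. Lipa, the lysosomal lipase that frees cholesterol from its esters, had a log2 fold change of 1.25 ± 0.06 (adjusted p = 7.62e-15). Npc2, which carries sterol out of the lysosome, had 1.16 ± 0.07 (adjusted p = 1.01e-13). Both were higher in 8 of 8 sets without overlap, and the share of all genes without overlap was not counted for this comparison.

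Genes that esterify, oxidise and export sterol moved as well. Soat1, which esterifies cholesterol for storage, had a fold change of 0.98 ± 0.07, and Ch25h, which makes 25-hydroxycholesterol, had 6.16 ± 0.18 (adjusted p = 1.64e-19). Ch25h lay at 0.386 to 0.956 UMIs per 10,000 in DAM-like cells and at 0.00223 to 0.0253 in homeostatic-like cells. It passed the filter on low counts by its DAM-like counts. Its fold change rests on few homeostatic-like counts, and its p is not read as support. Cyp27a1, another sterol hydroxylase, was lower (-0.53 ± 0.08). Of the LXR and efflux genes 3 of 4 tested were higher, with Apoe, the main apolipoprotein of the brain, at a log2 fold change with a 95% interval of 2.60 to 3.39, and the exporters Abca1 at 0.50 ± 0.06 and Abcg1 at 0.68 ± 0.08. Among genes of fatty acid synthesis 3 of 6 were higher and 1 lower, and Acaca, the carboxylase that commits acetyl-CoA to fatty acids, had 2.21 ± 0.12 and Scd2, a desaturase, 1.34 ± 0.10.

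**Figure D4:**
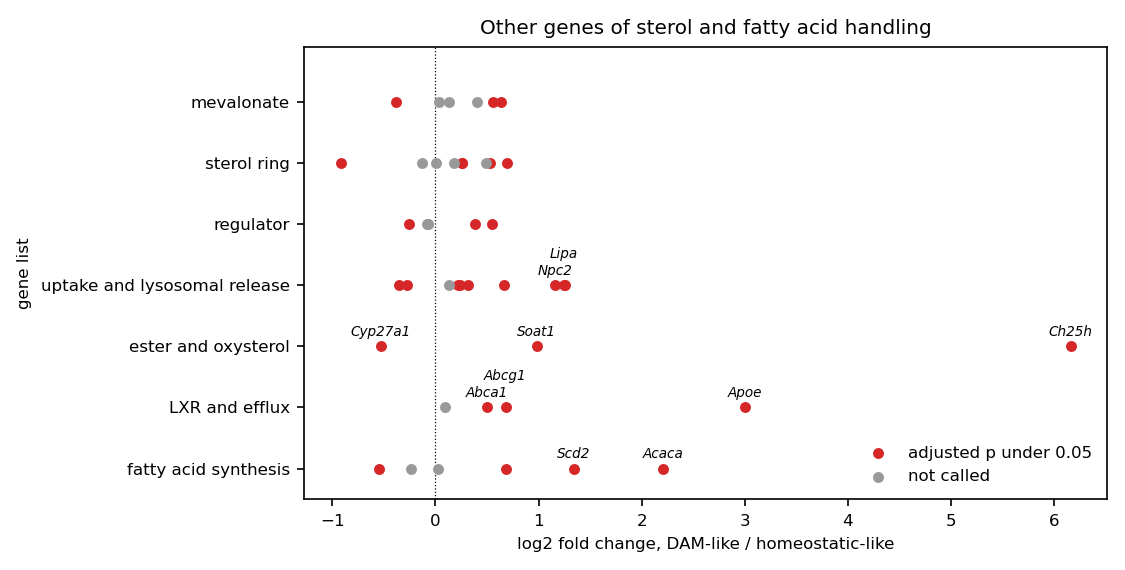
Log2 fold change of DAM-like over homeostatic-like cells for the tested genes of 7 lists (1 point a gene, called genes in red), with names for the 10 lowest adjusted p-values. Ch25h (6.16) and Apoe (interval 2.60 to 3.39) are the highest of the named genes, and Ch25h passed the filter on low counts by its DAM-like counts. The lowest value of the mevalonate and sterol ring lists is that of Lbr (-0.92), which carries no name.

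Between the regions in microglia-like cells, 6 of 46 tested list genes were higher in the thalamus and 1 was lower, against 13.1% of all genes called and 8.94% called and higher. The higher ones were Acaca (1.34 ± 0.15), Scarb1, a receptor for high-density lipoprotein (0.56 ± 0.09), Ch25h (2.59 ± 0.50), Npc2 (0.51 ± 0.14) and the enzymes Pmvk (0.33 ± 0.08) and Dhcr7 (0.48 ± 0.14) of the mevalonate and ring steps. The lower one was the desaturase Fads1 (-0.42 ± 0.08). In homeostatic-like cells 0 of 45 list genes were called by edgeR (3 at an unadjusted p under 0.05, and no other tool was read for these lists), against 0.796% of all genes. In DAM-like cells, whose DAM list differed between the regions as given above, 2 of 38 were called, against 1.21% of all genes. Acaca lay at 1.65, 1.37, 1.79 and 1.75 UMIs per 10,000 in thalamus sets 1 to 4 and at 0.924, 0.851, 0.929 and 0.983 in HPC sets 1 to 4, with a fold change of 0.85 ± 0.11 (adjusted p = 0.000874). Soat1 lay at 1.54, 1.63, 1.62 and 1.42 in thalamus sets 1 to 4, below its 2.03, 2.00, 2.01 and 2.28 in HPC sets 1 to 4, with a fold change of -0.41 ± 0.09 (adjusted p = 0.0315). Neither gene overlapped between the regions, and the share of all genes without overlap was not counted in DAM-like cells.

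The 8 genes were also compared across cell classes. Their summed level was lowest in neutrophil-like cells, at 0.60 ± 0.35 UMIs per 10,000 (n = 6 sets), followed by homeostatic-like cells at 0.73 ± 0.04 and DAM-like cells at 0.89 ± 0.11 (n = 8 each), T-like cells at 1.18 ± 0.19 (n = 8), macrophage- or monocyte-like cells at 1.75 ± 0.70 (n = 6) and dendritic-like cells at 2.14 ± 0.43 (n = 3). Neighbours in this order overlapped in their sets. The last 2 classes were not tested, as a class was tested only with at least 3 sets of 20 or more cells in each region, and the dendritic-like cells also carried 8 of 10 monocyte markers in at least 10% of cells. Only sets of 20 or more cells enter the levels above. The dendritic-like sets left out, with 6 to 17 cells, lay above those kept, at 2.75 to 5.73. Of macrophage- or monocyte-like cells, HPC set 3 (19 cells) lay at 3.54 and HPC set 4 (17 cells) at 2.11.

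**Figure D5:**
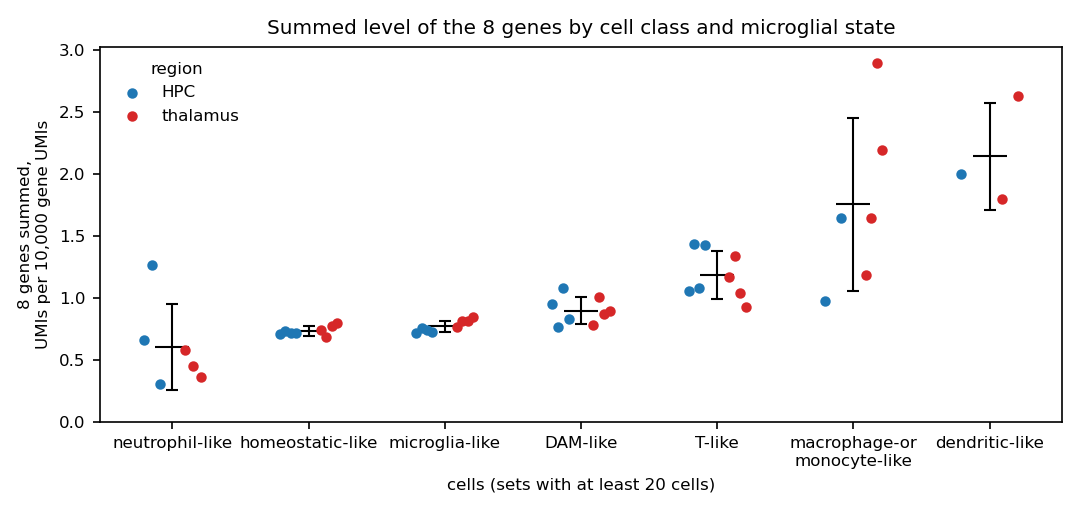
Summed level of the 8 genes, in UMIs per 10,000 gene UMIs, by cell class and microglial state, with 1 point for each set of at least 20 cells and the mean and SD over sets in black. T-like sets lie between 0.927 and 1.43, above all homeostatic-like sets (0.684 to 0.795), and macrophage- or monocyte-like sets spread from 0.976 to 2.89.

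T-like cells, the largest lymphocyte class with 2896 cells, were compared with microglia-like cells of the same sets. Of 8 members 5 were higher in T-like cells, where 78.1% of 13446 genes were called and 36.9% were called and higher. Sqle differed most. Its level was 0.087, 0.129, 0.078 and 0.063 UMIs per 10,000 in T-like cells of thalamus sets 1 to 4 and 0.049, 0.094, 0 and 0.142 in HPC sets 1 to 4, against 0.003 to 0.015 in microglia-like cells. The 0 came from the 31 cells of HPC set 3 and allows up to 0.216. The log2 fold change was 2.99 ± 0.32 (adjusted p = 1.08e-07, edgeR). Sqle was below the filter on low counts in the microglial fits and entered this fit by its T-like counts. A gene tested for being high in T-like cells is bound to come out higher there, so the p is not read as support.

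Fdft1, squalene synthase, had a fold change of 1.15 ± 0.18 and was higher in 8 of 8 sets, and Idi1 had 1.33 ± 0.24. Insig1 (0.66 ± 0.19) and Fdps (0.51 ± 0.14) were higher by less. Hmgcs1 (0.23 ± 0.14), Cyp51 (0.31 ± 0.16) and Msmo1 (-0.20 ± 0.15) were not called, and their values lay on both sides of 0. RNA of microglia was found in T-like cells, whose homeostatic microglial list summed to 5.32 to 6.79 UMIs per 10,000 against 61.1 to 114 in microglia-like cells, and its part in these levels was not tested. A list of 8 oligodendrocyte genes summed to 1.99 to 2.95 in T-like and 0.947 to 1.04 in microglia-like cells. In T-like cells Mbp (1558 UMIs) and Cnp (928 UMIs) gave nearly all of it, while Mobp, Mag, Mog, Cldn11 and Mal were each at 0 in 4 to 7 of the 8 sets. Between the regions 0 of 8 members were called in T-like cells (0 at an unadjusted p under 0.05 by edgeR, 0 by DESeq2), against 0.165% of 9108 genes.

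Of the other list genes 47 were tested in T-like against microglia-like cells, and 20 were higher and 18 lower, against 78.1% of all genes called and 36.9% called and higher. Of the mevalonate enzymes 4 of 6, and of the ring enzymes 7 of 10, were higher and 0 were lower. Lbr, the lamin B receptor, which also reduces the sterol ring, had a log2 fold change of 2.35 ± 0.10. Of the uptake genes 7 of 11 were lower and 2 higher, and of the LXR and efflux genes 3 of 4 were lower and 1 higher. The lower ones included the receptor Lrp1 (-5.13 ± 0.16) and the exporter Abca1 (-4.55 ± 0.12).

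In neutrophil-like cells 0 of 7 tested members differed from microglia-like cells by edgeR (0 at an unadjusted p under 0.05, no other tool run), where 64% of 12472 genes were called. The cells gave 109 UMIs of the 8 genes over 6 sets, and the intervals were wide, such as -1.28 to 0.38 for Cyp51 and -0.74 to 1.15 for Insig1.

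Over the 16 sums of homeostatic-like and DAM-like cells, the genes whose scaled log2 counts went most closely with the mean of the 7 tested members were Timm17a (Pearson r = 0.956), Plpp1 (0.947), Rragc (0.922), Il1r1 (0.921), Mrpl28 (0.916), Anxa7 (0.916), Osbpl8 (0.912), Gm15345 (0.911), Aldh2 (0.911) and Mthfd2 (0.910), out of 11818 genes compared. The members themselves had r from 0.345 (Idi1) to 0.860 (Cyp51) with a mean that includes them. The 16 points share libraries and state, so these r describe the same samples and carry no p.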

How the data were processed

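Cells of C57B6/J mice were profiled by 10x 3′ scRNA-seq with sample tags, and 8 tagged sets (4 thalamus, 4 HPC) were used. The authors deposited raw UMI counts per gene and cell, made with Cell Ranger (7.1.0 per the file headers) on mm10. Whether introns were counted is not given in the sources used here. Tag oligos, 14.6% of all UMIs, were left out of totals.

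Cells with 200 to 7500 genes and at most 2% mitochondrial UMIs were kept. Classes and microglial states were gated by marker lists, with thresholds set after marker values were seen. Cells with at least 6 microglial markers that passed another class gate and fitted no class (726) stayed unassigned. Macrophage-like cells could carry up to 8 microglial markers. A cell with few microglial markers that passed more than 1 other gate was placed by a fixed order, T-like first, and no doublet caller was run. 1 listed gene was not analysed here, and some list genes enter counts but are not reported by name. The members and lists were chosen with earlier results of these data known.

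Counts were summed per set and class (at least 20 cells) and tested with edgeR 4.0.16 (quasi-likelihood, TMM, filterByExpr, Benjamini-Hochberg over all genes, threshold 0.05) in R 4.3.3, after a test on simulated data. DESeq2 1.42.0 was an alternative, beside other scaling, filters, gates, equal cell numbers and leaving out each set. Levels are UMIs per 10,000 gene UMIs, computed in Python 3.11.15. A level of 0 allows up to 3 counts, which covers counting error only. Intervals are at 95%. Same-numbered sets deviated together in microglia-like cells (r = 0.505, 0.134, 0.475 and 0.178 over 12984 genes), with numbers taken from the names of the deposited matrices and not from a label that ties sets to mice, so the blocked fit is given beside that result where it changes a call. Named genes were all 8 members, up to 10 called list genes per comparison by adjusted p, and the 10 genes most like the members' mean.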

Additional observations from a re-analysis of the deposited data

Results flagged for a closer look

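Sqle in microglia-like cells of thalamus set 3 lay apart from the other thalamus sets, at 0.0114 UMIs per 10,000 (10 UMIs) against 0.00812 to 0.00854. Msmo1 in T-like cells of HPC set 2 lay apart from the other HPC sets, at 0.234 (20 UMIs) against 0.138 to 0.144. Both were picked up because the gap to the nearest set, as a share of the range over 4 sets, exceeded Dixon's 95% critical value, and 2 of 72 groups of 4 did so, where chance gives about 1 in 20.

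Acaca, the carboxylase at the head of fatty acid synthesis, differed between regions in its state difference. DAM-like cells exceeded homeostatic-like cells by 2.59 ± 0.09 (log2, SE) in the thalamus and by 1.63 ± 0.12 in the HPC, and the interaction was 0.96 ± 0.15 (adjusted p = 0.000598, edgeR). It was the 1 gene called of 51 members and list genes tested for the interaction, where 0.49% of all genes were called. The DAM list summed to 157 ± 57.5 UMIs per 10,000 (SD, n = 4) in DAM-like cells of the thalamus and 83.0 ± 6.68 in those of the HPC (n = 4), and its part in the difference was not tested.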

How the results depend on the processing

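Of 601 values of single members under alternatives, 584 stayed on their side of the threshold, 13 lost a call and 4 gained one. Most of these values were of members not called in the main fit. The region call of Insig1 was kept in 11 of 18 alternatives. The state calls of Cyp51, Msmo1 and Insig1 were each kept in 17 of 18, and that of Fdps in 15 of 18. The sign changed in 50, none of them called in either fit. Counts of genes called moved more. With the set number as a replicate block, calls between regions were 3682 in microglia-like cells (1699 without it), 709 in homeostatic-like cells (96), 306 in DAM-like cells (125) and 136 in T-like cells (15). Outside microglia-like cells the r of same-numbered sets was positive for every pair, but lower for most. It ran from 0.0642 to 0.368 in homeostatic-like cells, with 3 of 4 pairs above 0.1. In DAM-like cells it ran from 0.0588 to 0.114, and in T-like cells from 0.0311 to 0.261. The main fits there left the number out, and whether it marks a pairing was not tested. The block called no member in those 3 kinds of cells, and the list genes were not read under it. With no filter on low counts there were 269, 458 and 98 calls in homeostatic-like, DAM-like and T-like cells, and DESeq2 gave 217 in homeostatic-like cells. Drawing equal cell numbers from every set gave 60, 8 and 2 calls, and 2366 for DAM-like against homeostatic-like cells (5679 with all cells), by fewer cells and genes tested. Leaving out 1 set gave 777 to 2907 calls in microglia-like cells (lowest without HPC set 2, highest without HPC set 1), 27 to 456 in homeostatic-like (lowest without thalamus set 4, highest without HPC set 1), 59 to 205 in DAM-like (lowest without HPC set 1, highest without HPC set 3), 5 to 20 in T-like cells and 5050 to 5730 for the state comparison. Of called genes, 58.2% were higher in the thalamus in DAM-like cells with library totals only (68.8% with TMM), and under the block 59.4% in homeostatic-like (74.0% without it) and 58.8% in T-like cells (73.3%). Hmgcs1 was called for the state difference under a stricter gate (0.46, adjusted p = 0.0210), Fdft1 without HPC set 2 (0.50, adjusted p = 0.0481), and Fdps for the region with a mitochondrial limit of 5% (0.34, adjusted p = 0.0447). Except where given, the cause was not tested. Sqle, with 90 UMIs, was below the filter in microglial fits, and the HPC gave 286 UMIs of the 8 genes in DAM-like cells.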

Other observations

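Interferon-like microglia, 304 cells in all, were not compared by a test. The summed level of the 8 genes was 0.95 ± 0.23 UMIs per 10,000 in the HPC (SD, n = 4 sets, 86 UMIs) and 0.45 ± 0.22 in the thalamus (n = 3 sets, 23 UMIs). In the 1 set of B-like cells with at least 20 cells the summed level was 1.70 (84 UMIs in 56 cells), and in the 1 set of NK-like cells it was 0.717 (20 UMIs in 63 cells).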
